A study of Homo sapiens with 9 samples.

Results

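The integrated stress response and the unfolded protein response were described here through 41 genes, chosen by name from the deposited table of read counts, which lists 58884 genes. Of these, 21 belong to the ATF4 arm (bZIP factors and targets of ATF4) and 20 to the endoplasmic reticulum (ER) arm (sensors, chaperones and degradation factors). RNA-seq was performed on MDA-MB-231, a claudin-low human breast cancer line (Par), and on its sub-populations LM2 and BrM2, which were selected in mice for colonization of the lung and of the brain. All 3 lines were cultured alike for 3 days in DMEM with 10% FBS and antibiotics, with no treatment named in the labels, and harvested in 3 biological replicates per line at different passages, which makes 9 libraries. LM2 and BrM2 are each 1 selected sub-population, so a difference from Par is a difference between these cultures and not between lung and brain metastases at large.

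In the integrated stress response, kinases that sense amino acid shortage, ER stress, heme shortage or viral RNA phosphorylate the initiation factor eIF2, which lowers general protein synthesis while translation of ATF4 rises. ATF4 then induces genes of amino acid uptake, tRNA charging and stress adaptation through C/EBP-ATF response elements (CARE), often together with C/EBP factors. In the unfolded protein response, the ER membrane proteins IRE1 (gene ERN1) and ATF6, with the factor XBP1, induce chaperones, disulfide isomerases and ER-associated degradation (ERAD) through ER stress elements (ERSE) and unfolded protein response elements (UPRE). ATF4 is controlled largely at translation and XBP1 by splicing, so that counts per gene measure the amount of their mRNA and not their activity. In bulk RNA, fewer cells with a transcript and less of it per cell cannot be told apart.

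Counts on genes totalled between 14371858 and 24511786 per library, with the lowest total in replicate 1 of BrM2. The line's markers were partly as its claudin-low label would have them: VIM was at 636 to 1880 CPM (read counts relative to the TMM-normalized size of the library) and CD44 at 499 to 849 CPM, ESR1, PGR, CDH1 and CLDN3 were at most at 1.94 CPM, and EPCAM was at 2.73 to 7.94 CPM. CLDN4 went against the label in Par, at 72.7 to 107 CPM, beside 4.53 to 7.75 CPM in LM2 and 9.54 to 32.7 CPM in BrM2. Of 6 markers of other cell types, PTPRC, CD68, CDH5 and SFTPC had at most 6 counts in any library, whereas PECAM1 reached 183 and GFAP 428 counts.

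Replicates with the same number deviated together in all 3 lines, with correlations of 0.23 to 0.90. Replicates 2 and 3 of different lines did so as well, at 0.39 to 0.80. Between lines, only replicate 1 correlated negatively with the other numbers. The comparisons are therefore given both without the replicate number, which is the main test, and with it as a block. Both used edgeR's quasi-likelihood test over 13038 genes, at an adjusted p under 0.05. The comparisons of LM2 and of BrM2 with Par share the 3 Par libraries. Of the 41 genes, 39 were tested: all 20 of the ER arm and 19 of the ATF4 arm.

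The response elements of both arms are shown first, because they are the sequence by which ATF4, ATF6 and XBP1 are known to reach these genes. The core of CARE (TGATGNAA), ERSE (CCAAT and CCACG with 9 bases between them) and the core of UPRE (TGACGTGG) were searched on both strands of RefSeq promoter windows of GRCh38.p14, from 250 bases before to 50 bases after each start site. A window was found for 40 of the 41 genes. The CARE core was in 9 of 21 ATF4-arm promoters (42.9%), in 1 of 19 ER-arm promoters (5.26%) and in 4.46% of all 27305 genes in the table. ERSE was in 0 of 21 ATF4-arm promoters, in 7 of 19 ER-arm promoters (36.8%) and in 0.0916% of all genes, and the UPRE core was in 1 ER-arm promoter and in 0.927% of all genes. No promoter of the 41 genes held more than 1 kind of element. Both arms were listed as known genes of these pathways, so the contrast with all genes follows from that choice and is not a test. A match is a run of letters and not a measured binding site, and the absence of a match says only that the letters are not in the window. The CARE matches follow in capitals with up to 10 bases on each side, in the direction of transcription. Capitals that end in ATCA are matches on the opposite strand, and the number after each name is the position of the first capital letter from the start site.
ATF3, -191: aaggtcaggaTGATGGAAggctgtcata
CEBPG, -42: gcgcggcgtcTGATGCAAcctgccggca
CHAC1, -209: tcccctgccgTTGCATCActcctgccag
ASNS, -68: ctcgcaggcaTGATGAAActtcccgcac
SLC3A2, 38: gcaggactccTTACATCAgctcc
SLC7A1, 8: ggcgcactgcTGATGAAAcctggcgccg
AARS, -187: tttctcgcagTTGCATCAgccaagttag
GARS, -33: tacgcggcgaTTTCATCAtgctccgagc
NARS, 15: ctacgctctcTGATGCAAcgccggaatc
HERPUD1, -176: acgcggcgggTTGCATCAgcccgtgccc

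The ERSE matches are shown in the same way, with the whole element and its inner bases in capitals. Elements that open with CGTGG lie on the opposite strand. HSP90B1 holds a pair of them, and the UPRE match of HYOU1 closes the group.
XBP1, -52: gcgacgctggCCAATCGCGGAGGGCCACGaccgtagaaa
HSPA5, -66: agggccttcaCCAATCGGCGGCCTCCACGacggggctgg
HSP90B1, -194: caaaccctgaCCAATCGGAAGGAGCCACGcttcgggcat
HSP90B1, -89: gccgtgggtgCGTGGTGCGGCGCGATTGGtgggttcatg
CALR, -225: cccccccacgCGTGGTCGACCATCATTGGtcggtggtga
CANX, -151: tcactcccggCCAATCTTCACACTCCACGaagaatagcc
PDIA6, -86: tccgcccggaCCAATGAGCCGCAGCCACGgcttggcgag
CRELD2, -80: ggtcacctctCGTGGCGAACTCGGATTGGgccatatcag
HYOU1, -188: gctggccccgTGACGTGGtccaatccca

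Without the block, no ATF4-arm gene passed the threshold in any comparison. At an unadjusted p under 0.05 there were 3 of 19 in LM2 vs Par, 3 in BrM2 vs Par and 0 in BrM2 vs LM2, and DESeq2 called 2, 3 and 0. Over all 13038 genes tested, edgeR without the block called 8.70% in LM2 vs Par, 13.3% in BrM2 vs Par and 8.10% in BrM2 vs LM2. DESeq2 called 1893, 2522 and 1823 of these genes. Leaving replicate 1 out of every line, still without the block, 7 ATF4-arm genes were higher and 2 lower in LM2 than in Par, beside 15.9% and 17.3% of all genes, and 8 were higher and 1 lower in BrM2, beside 20.8% and 19.6%. With the replicate number as a block, 10 ATF4-arm genes stood higher and 2 lower in LM2, and 10 stood higher and 1 lower in BrM2, each against Par. The background with the block was 15.5% of all genes higher and 19.1% lower in LM2, and 19.5% higher and 23.2% lower in BrM2. Without replicate 3 of every line, the block called 5 genes of the arm in LM2, beside 16.5% of all genes in either direction, and 5 in BrM2, beside 23.1%. With all 9 libraries the block called 34.6% and 42.7% of all genes. The median log2 fold change of the 19 genes was 0.37 in LM2 and 0.35 in BrM2 without the block, beside 0.01 and -0.02 over all genes. It ran from 0.07 to 0.56 in LM2 and from 0.12 to 0.48 in BrM2 when 1 library or 1 replicate number was left out, and was lowest without replicate 1 of LM2 (0.07) and without replicate 1 of BrM2 (0.12). Of the 15 members of both arms that the block called in LM2 vs Par, 5 were called in all 3 block fits that left out a replicate number (ATF4, PPP1R15A, SLC7A1, SLC3A2 and PDIA4), and of the 18 in BrM2 vs Par 6 were (ATF4, PPP1R15A, SLC7A1, AARS, ERN1 and PDIA6). The plot of fold changes by role shows every tested gene of both arms.

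**Figure D1:**
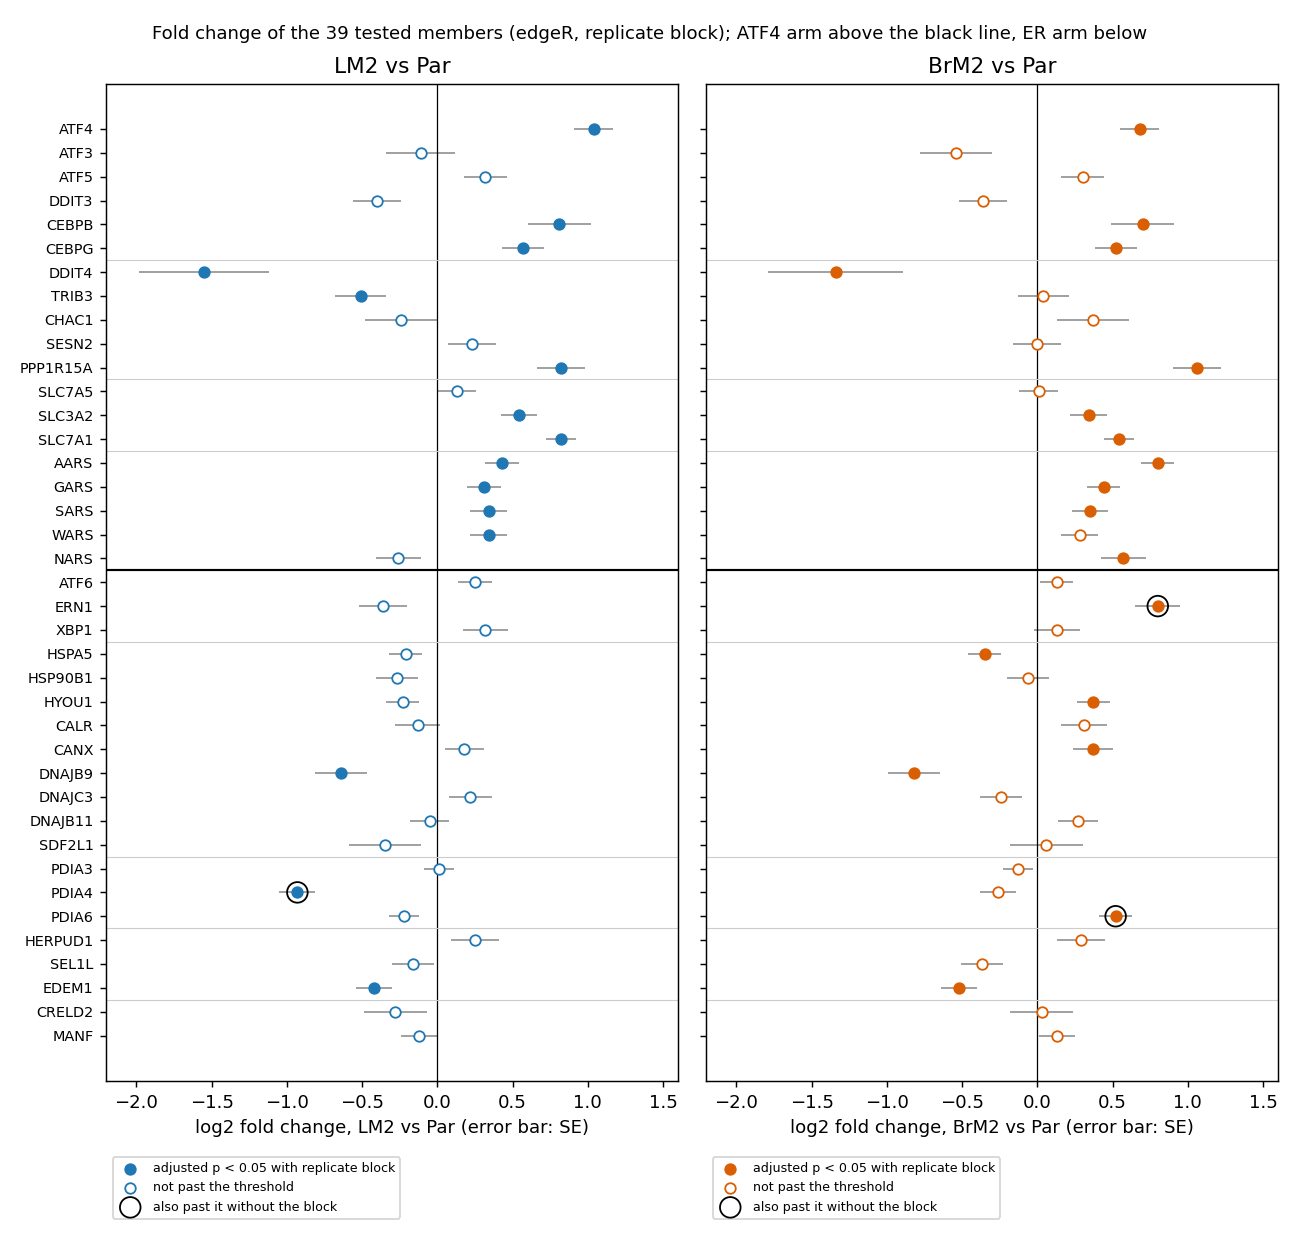
Log2 fold change (x axis, error bars SE) of the 39 tested genes (y axis, grouped by role) with the replicate block, LM2 vs Par on the left and BrM2 vs Par on the right. Filled points have an adjusted p under 0.05 with the block, and black rings mark the 3 that also passed without it: PDIA4 in LM2, ERN1 and PDIA6 in BrM2.

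Among the bZIP factors, ATF4 itself (chr22:39520559-39522686, GRCh38.p14) was the member with the smallest adjusted p of its arm in LM2. Its level was 333, 227 and 225 CPM in replicates 1, 2 and 3 of Par, 825, 439 and 406 CPM in LM2, and 512, 374 and 361 CPM in BrM2. Each LM2 and BrM2 library stood above each Par library, and replicate 1 was the highest library in every line. The log2 fold change was 1.09 ± 0.31 (SE, adjusted p = 0.069) in LM2 vs Par and 0.67 ± 0.31 (adjusted p = 0.23) in BrM2 vs Par without the block. With the block the values were 1.04 ± 0.13 (adjusted p = 0.00013) and 0.68 ± 0.13 (adjusted p = 0.0015). ATF4 was also lower in BrM2 than in LM2 with the block, by a log2 change of -0.37 ± 0.13 (adjusted p = 0.04), but not without it (adjusted p = 0.52). That call was lost in the block fits without replicate 1 and without replicate 3, and the value without the block was -0.02 when replicate 1 of LM2 was left out.

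DDIT3, which encodes the pro-apoptotic factor CHOP, did not follow ATF4. It stood at 13.6, 11.6 and 12.1 CPM in Par, at 11.1, 9.63 and 7.78 CPM in LM2 and at 9.37, 11.3 and 8.29 CPM in BrM2. All LM2 and BrM2 libraries lay below all Par libraries, and the log2 fold changes of -0.39 ± 0.22 (adjusted p = 0.39) and -0.36 ± 0.22 (adjusted p = 0.37) did not pass, nor did they with the block (adjusted p = 0.079 and 0.095). Of the DDIT3 exon bases, 27.2% lie opposite exons of the methionyl-tRNA synthetase gene, whose mean was 5791.4 counts, and the strand that was counted is not given in the sources used here.

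ATF3, a stress-induced bZIP factor and target of ATF4, was at a low level. Its values were 6.25, 4.40 and 6.44 CPM in Par, 8.44, 4.45 and 3.68 CPM in LM2, and 4.80, 3.53 and 3.55 CPM in BrM2. The lines overlapped, and the log2 fold changes were -0.05 ± 0.34 (adjusted p = 0.97) and -0.53 ± 0.35 (adjusted p = 0.42). Upstream of its start site, at chr1:212565157-212565406 on the plus strand, the CARE core is the run in capitals, printed for its place in a promoter whose gene did not pass.
ATF3: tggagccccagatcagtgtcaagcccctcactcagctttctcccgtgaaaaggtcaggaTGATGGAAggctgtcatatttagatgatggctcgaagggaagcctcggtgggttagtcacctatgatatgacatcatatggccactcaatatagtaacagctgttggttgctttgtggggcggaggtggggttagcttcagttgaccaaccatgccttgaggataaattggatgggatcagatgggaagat

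The C/EBP factors passed with the block and not without it. In both sub-populations the block call of CEBPB was lost without replicate 1 and that of CEBPG without replicate 3. CEBPB, a C/EBP partner in stress, had log2 fold changes of 0.81 ± 0.21 in LM2 (adjusted p = 0.013) and 0.70 ± 0.21 in BrM2 (adjusted p = 0.022), and CEBPG, a dimer partner of ATF4, had 0.57 ± 0.14 (adjusted p = 0.0099) and 0.52 ± 0.14 (adjusted p = 0.012). ATF5, another factor translated under eIF2 phosphorylation, was at 0.32 ± 0.14 and 0.30 ± 0.14 and did not pass (adjusted p = 0.099 and 0.1). Of its exon bases, 19.5% lie opposite NUP62.

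The stress effectors of the ATF4 arm moved in both directions. TRIB3, a pseudokinase induced by ATF4 and CHOP, was at 33.7, 22.8 and 25.9 CPM in Par, at 33.3, 14.4 and 14.3 CPM in LM2, and at 44.5, 19.6 and 25.1 CPM in BrM2. In LM2, replicates 2 and 3 lay below every Par library and replicate 1 did not. The log2 fold change in LM2 was -0.41 ± 0.42 without the block (adjusted p = 0.7) and -0.51 ± 0.17 with it (adjusted p = 0.035), and in BrM2 it was 0.11 ± 0.42 (adjusted p = 0.93). The block call of TRIB3 in LM2 was lost without replicate 2 or 3. PPP1R15A, which encodes GADD34, the subunit that directs a phosphatase to eIF2, had the highest log2 fold change of the arm in BrM2. Its per-library values, and those of DDIT4, SLC7A1 and AARS, were chosen for printing after they were seen.

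PPP1R15A was at 115, 85.8 and 76.1 CPM in Par, at 267, 133 and 113 CPM in LM2 and at 226, 184 and 163 CPM in BrM2. BrM2 lay wholly above Par, whereas the lowest LM2 library was just below the highest Par library. The log2 fold changes were 0.89 ± 0.34 (adjusted p = 0.17) and 1.05 ± 0.34 (adjusted p = 0.079), and with the block 0.82 ± 0.16 (adjusted p = 0.0023) and 1.06 ± 0.16 (adjusted p = 0.00031). DDIT4, an inhibitor of mTORC1 signalling that is also induced by hypoxia and glucocorticoids, went the other way, with 66.5, 90.5 and 37.1 CPM in Par, 30.2, 23.2 and 15.1 CPM in LM2 and 66.8, 9.54 and 16.7 CPM in BrM2. Its libraries spread widely within each line, and it passed with the block but not without it, at -1.55 ± 0.43 in LM2 (adjusted p = 0.018) and -1.34 ± 0.45 in BrM2 (adjusted p = 0.034). Both block calls of DDIT4 were lost without replicate 3. Without the block its log2 fold change in BrM2 was -1.07, and it ran from -2.30 without replicate 1 of BrM2, where it was called (adjusted p = 0.016), to -0.62 without replicate 2 of BrM2. CHAC1, which degrades glutathione, and SESN2, a leucine sensor that restrains mTORC1, passed in no comparison of all 9 libraries, with or without the block. Without replicate 1 of every line, CHAC1 was called higher in BrM2 than in LM2 in both fits. STC2, a secreted glycoprotein, had 10 to 30 counts per library and was not tested.

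Genes of amino acid supply were led by SLC7A1, the cationic amino acid transporter. It stood at 318, 237 and 211 CPM in Par, at 578, 405 and 377 CPM in LM2, and at 463, 321 and 331 CPM in BrM2. Neither sub-population overlapped Par, and the log2 fold changes of 0.83 ± 0.25 (adjusted p = 0.082) and 0.54 ± 0.25 (adjusted p = 0.22) became 0.82 ± 0.10 (adjusted p = 0.00016) and 0.54 ± 0.10 (adjusted p = 0.0017) with the block. SLC3A2, the heavy chain that carries SLC7A5 to the membrane, also passed with the block, at 0.54 ± 0.12 (adjusted p = 0.0048) and 0.34 ± 0.12 (adjusted p = 0.038). Without replicate 3, the block call of SLC3A2 in BrM2 was lost. Its partner SLC7A5, the leucine transporter, was at 0.13 ± 0.13 (adjusted p = 0.48) and 0.01 ± 0.13 (adjusted p = 0.96).

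ASNS, asparagine synthetase and a classic CARE target, was listed at 0.840, 0.968 and 0.825 CPM in Par, 0.298, 1.10 and 1.15 CPM in LM2, and 0.369, 0.618 and 0.719 CPM in BrM2, or 5 to 30 counts per library. Of its exon bases, 49.3% are also exon bases of another annotated gene on the same strand, which had a mean of 13.7 counts, and gene counting in STAR leaves out reads that fall on more than one gene. The part of the shared bases in these low counts was not tested, so the level of ASNS is uncertain.

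The 5 aminoacyl-tRNA synthetases of the arm, which charge tRNAs with amino acids, were led by AARS (alanine). Its levels were 210, 150 and 168 CPM in Par, 313, 198 and 206 CPM in LM2, and 346, 272 and 300 CPM in BrM2. BrM2 lay wholly above Par and LM2 overlapped it. The log2 fold change in BrM2 was 0.79 ± 0.23 without the block (adjusted p = 0.055) and 0.80 ± 0.11 with it (adjusted p = 0.00024), and in LM2 it was 0.43 ± 0.11 with the block (adjusted p = 0.014). With the block, GARS (0.31 and 0.44) and SARS (0.34 and 0.35) also passed in both sub-populations, WARS in LM2 (0.34) and NARS in BrM2 (0.57 ± 0.15, adjusted p = 0.012). In LM2 the adjusted p with the block was 0.047 for GARS, 0.049 for SARS and 0.045 for WARS. These LM2 calls were lost in each block fit that left out a replicate number. Without replicate 3, the block calls of GARS, SARS and NARS in BrM2 and of AARS in LM2 were lost. NARS differed between the sub-populations as well, at 0.83 ± 0.15 in BrM2 vs LM2 with the block (adjusted p = 0.0018) and 0.84 ± 0.45 without it (adjusted p = 0.34).

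In the ER arm, 1 gene passed in LM2 vs Par and 2 passed in BrM2 vs Par without the block, beside 8.70% and 13.3% of all genes. With it 3 of 20 were lower in LM2, beside 19.1% of all genes, and 4 were higher and 3 lower in BrM2, beside 19.5% and 23.2%. Without replicate 3 of every line, the block called 1 ER-arm gene in LM2 and 2 in BrM2, beside 16.5% and 23.1% of all genes. The median log2 fold change was -0.17 in LM2 and 0.10 in BrM2 without the block. It ran from -0.23 without replicate number 1 to -0.07 without number 3 in LM2, and from 0.05 without number 2 to 0.18 without number 1 in BrM2. Of the ER arm, 10 genes were lower in LM2 than in Par in each of the 3 same-numbered pairs and 3 were higher, beside 32.3% and 29.5% of all genes. In BrM2 vs Par, 8 were higher in all 3 pairs and 6 were lower, beside 29.0% and 33.8%. In the ATF4 arm these counts were 11 higher and 4 lower in LM2, and 13 higher and 2 lower in BrM2.

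**Figure D2:**
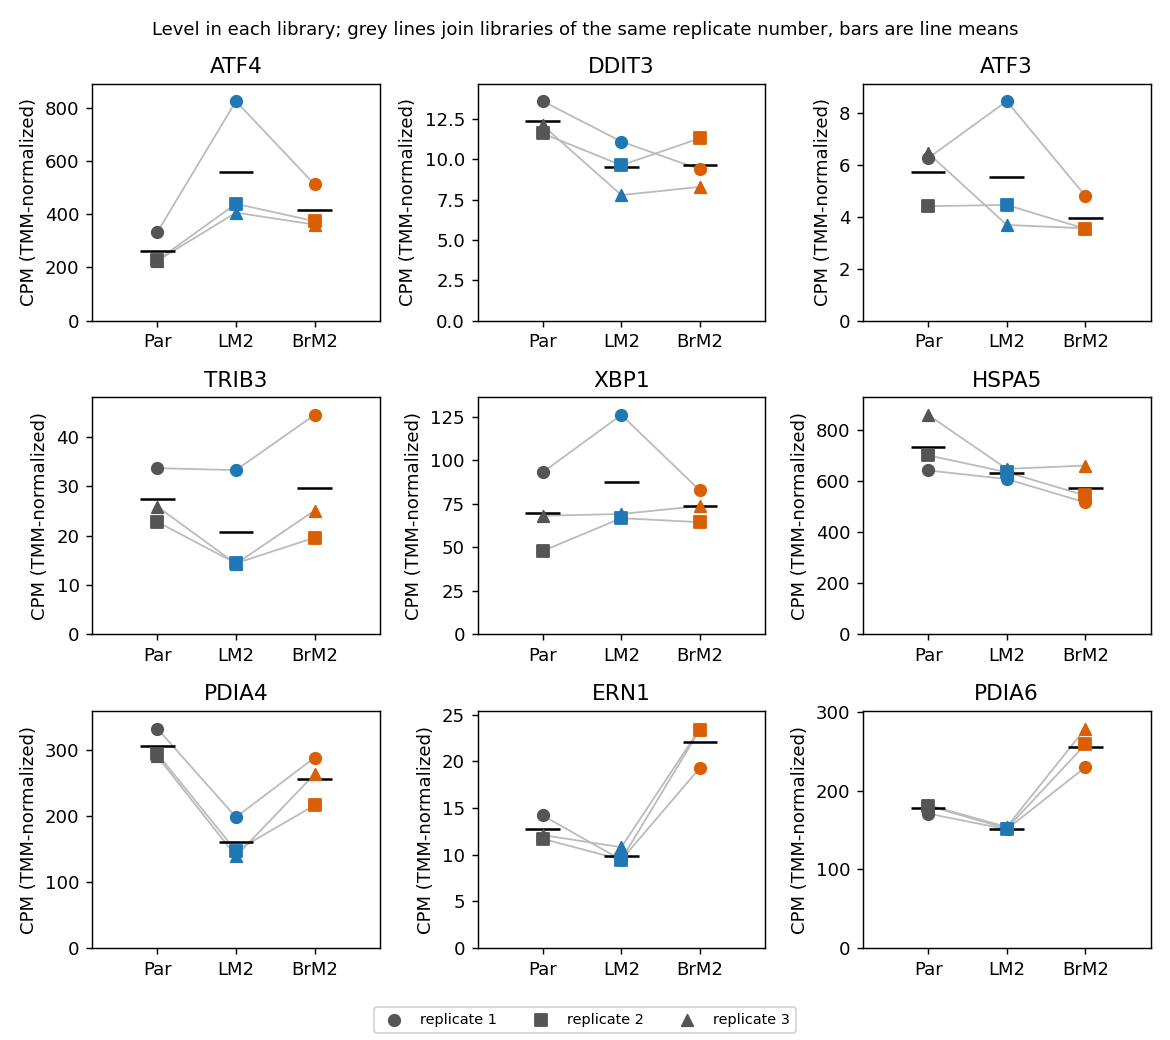
Level in CPM (y axis, from 0) of 9 genes in the 3 libraries of Par, LM2 and BrM2 (x axis), with marker shape for the replicate number, grey lines joining libraries of the same number and black bars for the line mean. ATF4 is higher in every LM2 and BrM2 library than in any Par library, PDIA4 is lowest in LM2 (139 to 198 CPM), and ERN1 and PDIA6 are highest in BrM2.

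Of the sensors, ERN1, the gene of the kinase and endoribonuclease IRE1 (chr17:64039142-64130144), was higher in BrM2. It stood at 14.2, 11.7 and 12.1 CPM in Par, at 9.44, 9.47 and 10.8 CPM in LM2 and at 19.3, 23.4 and 23.5 CPM in BrM2. The lines did not overlap, and the order from LM2 through Par to BrM2 was the same in each replicate number. The log2 fold change was 0.80 ± 0.19 in BrM2 vs Par (adjusted p = 0.024) and 1.16 ± 0.19 in BrM2 vs LM2 (adjusted p = 0.0064), a 2.23-fold difference. In LM2 vs Par it was -0.36 ± 0.19 (adjusted p = 0.35), which did not pass. The call in BrM2 vs LM2 held without any 1 library (adjusted p from 0.0094 to 0.04), whereas the call in BrM2 vs Par was lost without replicate 2 (adjusted p = 0.11) or 3 (0.097) of Par and without replicate 2 (0.092) or 3 (0.1) of BrM2.

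XBP1, the factor whose mRNA IRE1 splices, did not follow ERN1. It was at 93.1, 47.9 and 68.1 CPM in Par, at 126, 66.7 and 69.1 CPM in LM2 and at 82.6, 64.4 and 73.7 CPM in BrM2. All 3 lines overlapped, and the log2 fold changes were 0.33 ± 0.32 (adjusted p = 0.69) and 0.08 ± 0.32 (adjusted p = 0.93), with no call under the block. DNAJB9, a co-chaperone that restrains IRE1, was lower with the block in both sub-populations, at -0.64 ± 0.17 in LM2 (adjusted p = 0.013) and -0.82 ± 0.17 in BrM2 (adjusted p = 0.0029). EDEM1, an ERAD lectin, was lower as well with the block, at -0.42 ± 0.12 (adjusted p = 0.018) and -0.52 ± 0.12 (adjusted p = 0.0048). Without the block neither DNAJB9 (adjusted p = 0.52 and 0.34) nor EDEM1 (adjusted p = 0.38 and 0.21) passed. The block calls of both genes were lost without replicate 3, and in LM2 also without replicate 1. ATF6 was at 0.25 ± 0.11 and 0.13 ± 0.11 with the block and did not pass.

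Among the chaperones, HSPA5, the gene of BiP and the usual marker of ER stress, was at 641, 700 and 858 CPM in Par, at 607, 634 and 647 CPM in LM2 and at 516, 543 and 660 CPM in BrM2. The lines overlapped, while within each replicate number Par was the highest. Its log2 fold change was -0.22 ± 0.18 in LM2 (adjusted p = 0.59) and -0.36 ± 0.18 in BrM2 (adjusted p = 0.26), and with the block it was lower in BrM2, at -0.35 ± 0.11 (adjusted p = 0.024), beside -0.21 ± 0.11 in LM2 (adjusted p = 0.17). The 250 bases upstream of its start, at chr9:125241344-125241593 on the minus strand, hold the ERSE in capitals, shown because BiP is the reference gene of this element.
HSPA5: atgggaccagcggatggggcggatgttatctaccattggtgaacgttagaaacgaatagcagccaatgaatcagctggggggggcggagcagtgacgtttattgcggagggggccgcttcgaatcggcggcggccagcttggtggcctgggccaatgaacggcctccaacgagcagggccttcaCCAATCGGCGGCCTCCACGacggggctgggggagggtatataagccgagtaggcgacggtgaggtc

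Of the 9 chaperones, the block called HYOU1 and CANX higher and HSPA5 and DNAJB9 lower in BrM2 vs Par. Each of these calls was lost without replicate 3, and those of CANX and HSPA5 also without replicate 2. HYOU1, a nucleotide exchange factor and chaperone of the ER, was higher with the block in BrM2 than in Par (0.37 ± 0.11, adjusted p = 0.023) and than in LM2 (0.60 ± 0.11, adjusted p = 0.0022). The lectin chaperone CANX was higher with the block in BrM2 vs Par (0.37 ± 0.13, adjusted p = 0.035), and its soluble relative CALR in BrM2 vs LM2 (0.44 ± 0.15, adjusted p = 0.041). DNAJC3, a co-chaperone also known as P58IPK, was lower in BrM2 than in LM2 with the block (-0.47 ± 0.14, adjusted p = 0.023). The BrM2 vs LM2 calls of HYOU1, CALR and DNAJC3 were also lost without replicate 3. HSP90B1, which encodes GRP94, DNAJB11 and SDF2L1 passed in no comparison of all 9 libraries. In BrM2 vs LM2, HSP90B1 was called higher without the block when replicate 1 was left out of every line. SDF2L1 was called higher there with the block when replicate 2 was left out.

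The disulfide isomerases gave the other calls that did not depend on the block. PDIA4 (chr7:149003051-149028505) stood at 332, 294 and 290 CPM in Par, at 198, 147 and 139 CPM in LM2 and at 288, 216 and 263 CPM in BrM2. Its LM2 libraries lay below all others, at a log2 fold change of -0.92 ± 0.20 vs Par (adjusted p = 0.021). BrM2 vs Par was -0.25 ± 0.20 (adjusted p = 0.51), and BrM2 vs LM2 was 0.66 ± 0.20 without the block (adjusted p = 0.081) and 0.67 ± 0.12 with it (adjusted p = 0.0015). The block call in BrM2 vs LM2 was lost without replicate 3. The call in LM2 vs Par was lost without replicate 1, 2 or 3 of Par (adjusted p = 0.076, 0.07 and 0.058) and without replicate 2 or 3 of LM2 (0.098 and 0.09), while the log2 fold change stayed between -1.09 and -0.82.

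PDIA6 (chr2:10783391-10837712), an isomerase that also binds IRE1, was at 171, 181 and 182 CPM in Par, at 151, 152 and 154 CPM in LM2 and at 230, 259 and 279 CPM in BrM2. The lines did not overlap, with LM2 lowest and BrM2 highest. Its log2 fold change was 0.53 ± 0.15 in BrM2 vs Par (adjusted p = 0.049) and 0.75 ± 0.15 in BrM2 vs LM2 (adjusted p = 0.015), and -0.22 ± 0.15 in LM2 vs Par (adjusted p = 0.49). The first was lost in 7 of 9 fits that left out 1 library, with adjusted p between 0.08 and 0.2, and held without replicate 1 of LM2 (0.038) or of BrM2 (0.049). The second was lost without replicate 2 (0.071) or 3 (0.059) of LM2 and without replicate 2 (0.069) or 3 (0.089) of BrM2. Of its exon bases, 25.2% lie opposite ATP6V1C2, which had a mean of 11.0 counts. Without the block, the 5 calls of PDIA4, ERN1 and PDIA6 held when replicate 1 was left out of every line and were lost when replicate 2 or 3 was (adjusted p from 0.27 to 0.55), and with the block they held in all of these fits. PDIA3 passed in no comparison (-0.13 ± 0.14 in BrM2 vs Par, adjusted p = 0.66).

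RefSeq lists 2 promoter windows for PDIA6, and the ERSE is in the one nearer its 3′ end. Its upstream bases, at chr2:10812786-10813035 on the minus strand, are printed with the element in capitals because PDIA6 is the called gene that carries it. The windows of ERN1 and PDIA4, the other called genes, hold none of the searched letters.
PDIA6: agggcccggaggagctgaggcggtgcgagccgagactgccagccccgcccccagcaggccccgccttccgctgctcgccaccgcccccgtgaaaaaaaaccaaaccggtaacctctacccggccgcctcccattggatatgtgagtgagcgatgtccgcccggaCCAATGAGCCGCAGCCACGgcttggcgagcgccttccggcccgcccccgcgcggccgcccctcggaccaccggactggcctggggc

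The remaining ERAD and secreted genes were tested without a call in either fit of all 9 libraries. With the block and without replicate 2, SEL1L was called lower in BrM2 than in Par. HERPUD1, which recruits the degradation complex, was at 0.25 ± 0.16 in LM2 and 0.29 ± 0.16 in BrM2 with the block, and SEL1L, the adaptor of the ERAD ubiquitin ligase HRD1, at -0.16 ± 0.14 and -0.37 ± 0.14 (adjusted p = 0.38 and 0.051). CRELD2 and MANF, ER proteins released under stress, lay between -0.28 and 0.13 in both. Levels per length used all annotated exons of a gene merged, which can be longer than its mRNA, so their order depends on the annotation. By this measure, CALR had the highest mean level of the 41 genes in each line, at 416 CPM per kb in Par, 395 in LM2 and 515 in BrM2. It was followed by SLC7A5 in Par, at 146 CPM per kb, and by ATF4 in LM2, at 213, and in BrM2, at 159 CPM per kb. ERN1 was at 0.663, 0.516 and 1.15 CPM per kb.

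Between BrM2 and LM2, compared directly, ERN1 and PDIA6 were the genes that passed without the block. With it, 3 ATF4-arm genes were higher in BrM2 (NARS, AARS and TRIB3, the last at 0.55 ± 0.17 with adjusted p = 0.024) and ATF4 was lower, and 5 ER-arm genes were higher (ERN1, PDIA6, PDIA4, HYOU1 and CALR) and DNAJC3 was lower. The background with the block was 17.8% of all genes higher and 19.7% lower. Of the 10 members that the block called, ERN1, NARS and PDIA6 were called in all 3 block fits that left out a replicate number. The others were not called without replicate 3, where the block called 2065 of 13038 genes. The median log2 fold change without the block was -0.02 for the ATF4 arm and 0.23 for the ER arm, beside -0.03 over all genes. The ATF4-arm median changed sign when 1 library was left out, from -0.25 without replicate 1 of BrM2 to 0.32 without replicate 1 of LM2, and the ER-arm median ran from 0.05 without replicate 2 of BrM2 to 0.25 without replicate number 1. In BrM2 vs LM2, 5 ATF4-arm and 7 ER-arm genes were higher in all 3 same-numbered pairs, and 4 and 6 were lower, beside 30.6% and 34.7% of all genes.

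**Figure D3:**
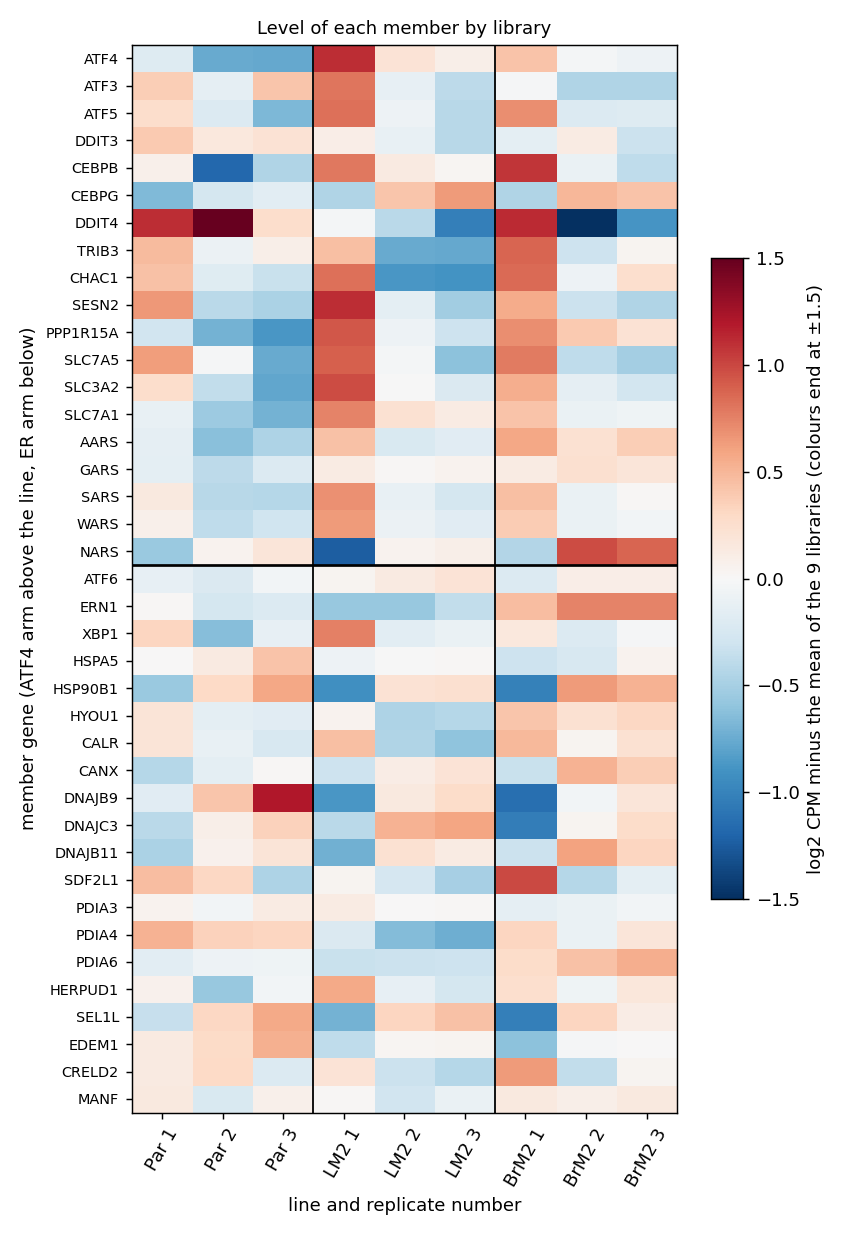
Log2 CPM of the 39 tested genes (rows, ATF4 arm above the line and ER arm below) minus the gene's mean over the 9 libraries (columns, by line and replicate number), red above and blue below that mean. Replicate 1 of each line is red for most of the ATF4 arm and blue for CEBPG, NARS, HSP90B1, DNAJB9, DNAJC3, DNAJB11 and SEL1L.

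As over all genes, more of these genes were called for the replicate number than for the line. In an F test of the replicate number within lines, 29 of 39 genes passed, 16 of 19 in the ATF4 arm and 13 of 20 in the ER arm, beside 65.7% of all genes. Replicate 1 stood above the mean of replicates 2 and 3 in all 3 lines for 15 ATF4-arm genes and below it for 2, and above it for 8 and below it for 9 ER-arm genes, beside 41.2% and 41.9% of all genes. The log2 difference of replicate 1 from the others, averaged over lines, was 1.15 for SESN2, 1.15 for SLC7A5, 1.04 for CHAC1 and 0.90 for TRIB3, and it was -1.24 for HSP90B1, -1.11 for NARS and -1.07 for DNAJB9. ERN1 (-0.04), PDIA6 (-0.11) and PDIA3 (0.02) were near 0.

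The same difference went with the base composition of the transcripts. Across the 39 genes, Spearman's rho between the GC content of the longest annotated transcript and the difference of replicate 1 was 0.88 (Pearson's r = 0.86), and across 12972 tested genes it was 0.80. Genes are not independent replicates, and all points come from the same 9 libraries. Median GC content was 53.8% in the ATF4 arm, 45.5% in the ER arm and 47.6% over all tested genes. The part of GC content in the differences of replicate 1 was not tested. With the block, rho between GC content and the log2 fold change of the 39 genes was 0.05 for LM2 and 0.20 for BrM2, each against Par, beside -0.25 and -0.02 over all genes.

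**Figure D4:**
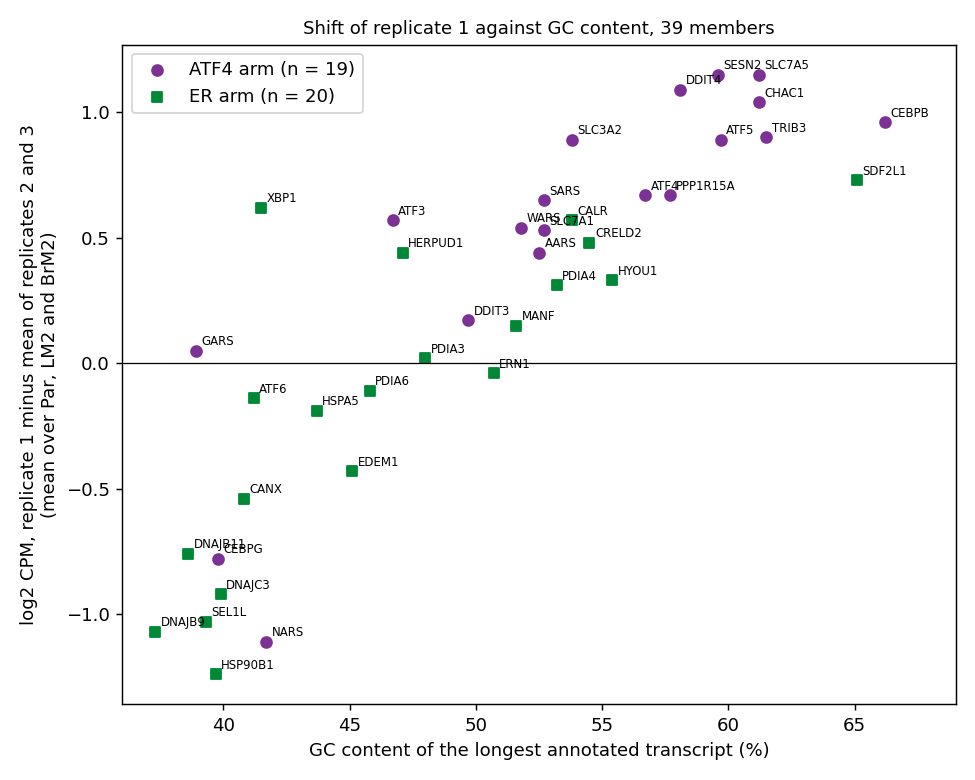
Log2 CPM of replicate 1 minus the mean of replicates 2 and 3, averaged over Par, LM2 and BrM2 (y axis), against the GC content of the longest annotated transcript in percent (x axis) for the 39 tested genes. The points rise from HSP90B1 at -1.24 to SESN2 and SLC7A5 at 1.15, with a rho of 0.88.

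Further genes of both pathways were taken from 8 lists of 123 genes. Their counts stand against 8.70% of all genes called in LM2 and 13.3% in BrM2 without the block, each against Par, and against 15.5% higher and 19.1% lower in LM2 and 19.5% higher and 23.2% lower in BrM2 with it. Of 14 genes of the eIF2 kinases, eIF2, eIF2B and its phosphatases, EIF2S3, the gamma subunit of eIF2, was lower in LM2 than in Par (-1.06 ± 0.28, adjusted p = 0.049) and EIF2B1, a subunit of the exchange factor of eIF2, was higher in BrM2 (0.64 ± 0.16, adjusted p = 0.033). EIF2S3 was nearly as low in BrM2 vs Par (-0.96 ± 0.28, adjusted p = 0.052), where it passed with the block (adjusted p = 0.00018). Of the 14 genes, 3 were higher and 2 lower in LM2 with the block, and 5 higher and 1 lower in BrM2. Of 15 other aminoacyl-tRNA synthetases, IARS (isoleucine) rose in LM2 (0.62 ± 0.16, adjusted p = 0.041), and KARS (lysine, 1.26 ± 0.19, adjusted p = 0.0026) and FARSB (phenylalanine, 0.57 ± 0.16, adjusted p = 0.049) rose in BrM2. With the block 8 were higher in LM2 and 9 in BrM2, with 0 lower in both.

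Of 18 other ATF4 targets, 0 passed in LM2 vs Par with edgeR (5 at an unadjusted p under 0.05, 2 with DESeq2) and VEGFA, the endothelial growth factor, fell in BrM2 (-0.68 ± 0.15, adjusted p = 0.018). With the block, 7 were higher and 3 lower in LM2, and 5 higher and 3 lower in BrM2. Of 28 genes of ERAD, the translocon and glycan control, 27 were tested. SSR3, a subunit of the translocon-associated complex, rose in LM2 (0.87 ± 0.22, adjusted p = 0.038) and in BrM2 (0.99 ± 0.22, adjusted p = 0.017), and SEC61G, a subunit of the translocon itself, fell in LM2 (-0.67 ± 0.18, adjusted p = 0.049). With the block, 2 were higher and 2 lower in LM2, and 4 higher and 6 lower in BrM2.

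Of 18 other ER oxidoreductases and co-chaperones, 16 were tested and SELENOS, a selenoprotein of the ERAD machinery, rose in LM2 (0.75 ± 0.18, adjusted p = 0.033). In BrM2 vs Par 0 passed with edgeR, 0 at an unadjusted p under 0.05 and 0 with DESeq2, and with the block 2 were higher and 3 lower in LM2 and 1 higher and 1 lower in BrM2. The 8 ER membrane bZIP factors and proteases had 7 tested, and those called without the block were lower. MBTPS2, the site-2 protease that releases ATF6, fell in LM2 (-1.35 ± 0.34, adjusted p = 0.043) and in BrM2 (-1.34 ± 0.34, adjusted p = 0.032). The ATF6 relatives CREB3L2 (-0.89 ± 0.17, adjusted p = 0.008) and CREB3L1 (-1.80 ± 0.47, adjusted p = 0.035) fell in BrM2. With the block, 0 were higher and 3 lower in LM2, and 1 was higher and 3 lower in BrM2.

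Outside the ER, 2 of 13 cytosolic heat shock genes passed in each sub-population. The small heat shock protein gene HSPB8 fell in LM2 (-3.80 ± 0.65, adjusted p = 0.0069) and in BrM2 (-2.83 ± 0.62, adjusted p = 0.016), HSPA1A fell in LM2 (-2.07 ± 0.35, adjusted p = 0.007), and HSP90AB1 rose in BrM2 (0.67 ± 0.18, adjusted p = 0.039). HSPA1A has the near-identical copy HSPA1B, so its counts are uncertain. With the block, 3 were higher and 4 lower in LM2, and 5 higher and 1 lower in BrM2. Of 9 mitochondrial chaperones and proteases, 0 passed with edgeR in either comparison without the block (0 and 2 at an unadjusted p under 0.05, and 0 and 2 with DESeq2), and with it 1 was higher in LM2 and 4 in BrM2.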

How the data were processed

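RNA-seq counts of 9 libraries (Par, LM2 and BrM2, 3 each) were used. Per the labels and the study's methods, the authors made stranded mRNA libraries, sequenced paired ends, aligned them to hg38 with STAR 2.7.0, and deposited the read count of each gene without normalization. The submitters' processing notes also name CASAVA 1.8.2 and DESeq2. A second table holds the authors' own comparisons (fold changes and p-values) and was not used. The table has 58887 rows. 3 repeated identifiers were counted once.

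A filter written after HTSFilter kept the 13038 genes whose largest normalized count exceeded 47.15, with 99.64% to 99.78% of all counts. edgeR 4.0.16 (TMM, 2-sided quasi-likelihood test, 3 lines as groups, all 9 libraries) was the main test, with Benjamini-Hochberg adjustment over all genes tested, and DESeq2 1.42.0 an alternative (R 4.3.3, limma 3.58.1, Python 3.11.15). The fits were tested on simulated data with a dispersion near that of the block fit (0.021) and no effect of the replicate number. That test does not cover the wider spread of the main fit. Depth of 14371858 to 24511786 counts limits the precision of genes with few counts. CPM are TMM-normalized, and differences of replicate 1 used log2(CPM + 0.1). GC content, exon lengths and overlaps of exons came from GENCODE annotation on GRCh37, positions and promoters from RefSeq GRCh38.p14, matched by symbol.

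The labels give a replicate number but no pairing, which was therefore checked in the data. Deviations of log2 CPM from line means correlated at 0.23 to 0.90 in 9 of 9 same-numbered pairs. Pairs with different numbers ranged from -0.88 to 0.80, and those of replicate 2 with replicate 3 were all positive. Par replicate 2 correlated at 0.41 with BrM2 replicate 3 and at 0.23 with BrM2 replicate 2. With LM2 it went the other way, at 0.50 with replicate 2 and 0.39 with replicate 3. The check thus sets replicate 1 apart but does not show how replicates 2 and 3 pair. The block rests on taking all 3 numbers as they stand. The common dispersion was 0.11 without and 0.0207 with the block. Where the replicates are not separate cultures, p-values measure only the spread between these samples.

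The members, lists and tests were chosen with earlier results of these data known. Per-library values are given for members with an adjusted p under 0.05 in the fit without the block and for ATF4, DDIT3, ATF3, TRIB3, ASNS, XBP1 and HSPA5. Genes of the 8 lists are named where they passed the same fit, at most 4 per list and comparison. The values of PPP1R15A, DDIT4, SLC7A1 and AARS were added after they were seen. Upstream sequences are shown for at most 3 of the members chosen by the rule that hold a motif, smallest adjusted p first. The added ones were outside this rule, and ASNS has no adjusted p. The alternatives were other normalization, DESeq2, no filter, the block, only the 2 lines compared, and leaving out each library or each replicate number.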

Additional observations from a re-analysis of the deposited data

Results flagged for a closer look

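The effects of LM2 and of BrM2, both measured against Par, differed for these genes of the pathways by the direct edgeR comparison of BrM2 with LM2 without the block. ERN1 was higher in BrM2 by a log2 change of 1.16 ± 0.19 (adjusted p = 0.0064), and PDIA6 by 0.75 ± 0.15 (adjusted p = 0.015), with each BrM2 library above each LM2 library.

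Among the further pathway genes, KARS was higher in BrM2 than in LM2 by 0.77 ± 0.19 (adjusted p = 0.038) and IARS was lower, at -0.71 ± 0.16 (adjusted p = 0.025), so that both synthetases were called and in opposite directions. NUPR1, a stress-induced chromatin protein, was at -2.65 ± 0.46 (adjusted p = 0.0079), SELENOS at -1.03 ± 0.18 (adjusted p = 0.0081), CREB3L2 at -0.87 ± 0.17 (adjusted p = 0.013) and HSPA1A at 2.16 ± 0.36 (adjusted p = 0.0062). NUPR1 ranged from 4.94 to 11.2 CPM in LM2, from 2.47 to 2.78 CPM in Par and from 0.530 to 1.70 CPM in BrM2.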

How the results depend on the processing

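No result changed direction while past the threshold in either fit. Of 39 genes and 3 comparisons under 21 alternatives, 147 values changed sign without a call, 203 gained a call and 37 lost one. ATF4-arm genes called without the block were 0 in each comparison. In LM2 vs Par they became 2 with DESeq2, 1 without the filter and 12 with the replicate block, and in BrM2 vs Par 3, 1 and 11, and 2 with only the 2 lines compared. In BrM2 vs LM2 there were 4 with the block. Leaving out a library or a replicate number gave 0 to 9, 0 to 9 and 0 to 5. Over all genes, the same fits called 70 to 4326, 159 to 5272 and 53 to 4256. In the ER arm, the 1, 2 and 2 genes called became 0, 0 and 1 without the filter, 3, 7 and 6 with the block, 0 in BrM2 vs Par and 1 in BrM2 vs LM2 with only the 2 lines compared, and 0 to 2, 0 to 6 and 0 to 6 without a library or number. Without the filter, PDIA4, ERN1 in BrM2 vs Par and PDIA6 were thus not called. The cause was not tested.

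These block fits were added after seeing the data. With RLE normalization the block called 12, 12 and 5 ATF4-arm and 3, 7 and 6 ER-arm genes. The block without replicate 1 called 8, 10 and 5 ATF4-arm genes and 7 (BrM2 vs Par) and 5 (BrM2 vs LM2) ER-arm genes. Without replicate 2 it called 9, 13 and 4, and 3, 6 and 6. Without replicate 3, it called 5, 5 and 1 ATF4-arm genes. ATF4, PPP1R15A and SLC7A1 were called in all of these fits in LM2 and in BrM2 vs Par. Over all 13038 genes, calls rose from 1134 to 4507, 1734 to 5571 and 1056 to 4894 with the block (1893, 2522 and 1823 with DESeq2). The block called 4607, 5612 and 4931 of them with RLE normalization and 3650, 4809 and 3725 without replicate 1. It called 4210, 5846 and 5372 without replicate 2, and 2153, 3017 and 2065 without replicate 3. With only the 2 lines compared, 904, 1566 and 597 were called. Without the filter, 1498, 2165 and 1446 of 34056 genes were. The replicate number called 16 or 17 ATF4-arm and 13 or 14 ER-arm genes in each fit. Depth limits genes such as CHAC1, ATF3, CEBPB and SDF2L1, which were under 20 CPM.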
